A study of Homo sapiens with 9 samples.

Results

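The 3 parental libraries of a series on the mitochondrial chaperone TRAP-1 are described here as an absolute ranking of genes, with no contrast. They are 3 of 9 RNA-seq libraries and were chosen by their labels alone, not by any measured value. The parental group carries the genotype WT, the cell line name IMR-32, the tissue Brain and the cell type neuroblastoma in its labels. The other groups are 3 libraries labelled TRAP1 knockdown (KD) and 3 labelled TRAP1 overexpression (OE), of the same line. KD and OE cells were lines the authors had made earlier, all cells were grown in DMEM with fetal bovine serum, and per the methods the parental line had been authenticated. The libraries of a group are repeat RNA isolations, and nothing says that they came from separate cultures, so the spread among them may be technical.

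Neuroblastoma is a tumour of the sympathetic branch of the neural crest, and IMR-32 is an established line of it known for an amplified MYCN gene. Neuroblastoma lines are commonly described in an adrenergic state, held by factors such as HAND2 and GATA3 and marked by enzymes of catecholamine synthesis, or in a mesenchymal state, marked by PRRX1, the AP-1 factor FOSL1, YAP1 and vimentin. A ranking of RNA levels within the parental libraries asks which of these programmes their RNA holds.

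Each deposited value is a regularized log2 value (rlog) of a gene in a library, scaled for library size by the authors. To rank genes, each value was raised from the log2 scale, divided by the gene's length in merged exons, and scaled to a sum of 1000000 in each library. The result is termed the level and is given in parts per 1000000 (ppm), with the mean of 3 libraries taken on the log2 scale. A level at or above 100 is termed high and a level under 1 near the floor. The number of reads of each library cannot be read from rlog values. rlog shrinks each gene toward its mean over all 9 libraries, most of all at low counts, so a low parental value also carries information from the libraries labelled KD and OE and is not a 0. A gene with no value in the table was not analysed here, and a missing value is not read as low RNA, since genes of most dividing cells such as LDHB and CDK2 have none. The authors removed genes with a total count under 10, and which of the missing genes that step took out is not recorded.

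Of 22290 genes in the table, 22195 had a gene model and hence a level. In the parental libraries 15160 of them (68.3%) lay at or above 1 ppm, 9081 (40.9%) at or above 10 and 1724 (7.77%) at or above 100, while 7035 (31.7%) lay near the floor. The 14684 protein-coding genes of the nuclear genome had a median of 14.0 ppm, and 3261 of them (22.2%) lay near the floor. The 7498 genes of other biotypes outside the mitochondrial protein-coding genes had a median of 0.980 ppm and held 7.03% of the summed level. The libraries were close to each other, with a root mean square difference of rlog of 0.0602 between parental 1 and 2, 0.0610 between 1 and 3 and 0.0620 between 2 and 3, and 0 identical values. The median SD of the log2 level was 0.017 among genes at or above 100 ppm, 0.044 among those from 1 to 10 and 0.026 near the floor. Because rlog values are shrunken, these SDs and all SDs given below may understate the spread among libraries.

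Several defining markers of the neuroblastoma label lay near the floor, while 4 other factors of the adrenergic list (TFAP2B, SOX11, ISL1 and GATA2) lay at or above 10 ppm. MYCN (ENSG00000134323, chromosome 2, 15940550 to 15947007 on the plus strand) had a level of 0.236, 0.222 and 0.237 ppm in parental 1, 2 and 3, near the floor in all 3. Its rlog values were 2.54, 2.46 and 2.54. PHOX2A (ENSG00000165462, chromosome 11, 72239077 to 72245664 on the minus strand), a homeobox factor of noradrenergic neurons, had 0.157, 0.159 and 0.155 ppm. TH (ENSG00000180176, chromosome 11, 2163929 to 2171815 on the minus strand), the rate-limiting enzyme of catecholamine synthesis, had 0.253, 0.246 and 0.254 ppm, and the granule protein CHGA had 0.649, 0.599 and 0.606. MYCN, PHOX2A, TH and CHGA lay near the floor in every parental library. MYCN, PHOX2A and TH lay there in the other groups too. The means of the libraries labelled KD and OE were 0.241 and 0.228 ppm for MYCN, 0.156 and 0.157 for PHOX2A, and 0.219 and 0.223 for TH. In bulk RNA, fewer cells that express a gene and less RNA per cell cannot be told apart. A level near the floor need not mean little RNA either. COX6A1, a subunit of cytochrome c oxidase, had 0.436 ppm, although the subunits COX4I1 (234) and COX7A2 (210) were high. Whether reads of MYCN, PHOX2A, TH, CHGA or other genes near the floor were lost in counting was not tested. The libraries are therefore referred to as the parental libraries and not by a cell type.

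Of the 15 genes listed as adrenergic neuroblastoma factors, 11 had a value, 4 of these lay at or above 10 ppm and 3 near the floor, with a median of 4.99 against 14.0 over all nuclear protein-coding genes. HAND1, TBX2 and INSM1 were among those with no value. The list's summed level was 333, 332 and 339 ppm in parental 1, 2 and 3, and most of it came from TFAP2B. TFAP2B, an AP-2 factor of the neural crest, had 234, 233 and 239 ppm and was also high in the libraries labelled KD (297) and OE (279). The other members at or above 10 ppm were SOX11 with 43.3, 44.1 and 44.9, the LIM homeobox factor ISL1 with 26.2, 25.8 and 26.5 and GATA2 with 14.2, 13.9 and 13.9. The receptor kinase ALK had a mean of 5.89 ppm, GATA3 4.99, HAND2 2.54 and LMO1 1.32. Members of the list were thus found across a wide range, with the core circuit factors GATA3, HAND2 and PHOX2A under 10 ppm and ISL1 above it.

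The catecholamine and neuroendocrine list had values for 10 of 15 genes, with 3 at or above 10 ppm, 5 near the floor and a median of 1.09. With a floor of 0.5 ppm in place of 1 only TH and SLC18A1 would lie near it, and CHGA, PCSK2 and SLC18A2 would not. DBH and DDC, enzymes of the same pathway as TH, had no value, and neither had SLC6A2, SCG3 and PCSK1. The list's summed level was 253, 260.3 and 262 ppm. VGF, a secreted neuropeptide precursor, held most of this sum with 212, 219.8 and 219.7 ppm, and the libraries labelled KD and OE had means of 798 and 335. The granin SCG2 followed with 23.5, 23.1 and 24.5 and GCH1, which makes the cofactor of TH, with 12.0, 12.3 and 12.2. CHGB had a mean of 1.47 ppm and the vesicle protein SYP 1.30. PCSK2 (0.871), SLC18A2 (0.582, with 56.4% of its exonic bases shared with other genes) and SLC18A1 (0.177) lay near the floor beside CHGA and TH. The members above 10 ppm were a peptide precursor, a granin and a cofactor enzyme, and no monoamine transporter with a value reached 1.

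Among neuronal genes 16 of 23 had a value, 2 lay at or above 10 ppm and 11 near the floor, with a median of 0.358. The summed level was 58.4, 58.6 and 58.1 ppm. L1CAM, an adhesion molecule, led with 26.6, 25.9 and 26.3 ppm, and the light neurofilament NEFL had 15.2, 16.2 and 15.2. The RNA-binding protein ELAVL2 had a mean of 9.54 ppm, the synaptic vesicle protein SYT1 2.13 and the microtubule protein MAPT 1.51. Near the floor were CHRNA3 (0.913), NCAM1 (0.728), RBFOX3 (0.360), GAP43 (0.355), NEFM (0.306), NEFH (0.248), SYN1 (0.164), UCHL1 (0.0903), MAP2 (0.0782), ELAVL3 (0.0709) and TUBB3 (0.0568). ELAVL4, STMN2, STMN4, INA, PRPH, DCX and SNAP25 had no value. Of the exonic bases of NEFM 26.4%, of SYN1 25.1% and of TUBB3 21.3% are shared with other genes, and a loss of reads to that overlap was not tested. Without genes of over 25% shared exonic bases 9 neuronal genes lay near the floor. NCAM1 had means of 1.88 ppm in the libraries labelled KD and 0.526 in those labelled OE, a difference that was not tested.

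The list of mesenchymal neuroblastoma factors and markers stood at the other end. Of its 18 genes 17 had a value, 13 lay at or above 10 ppm, 6 were high and only MEOX1 (0.672) lay near the floor, with a median of 36.1. The summed level was 3141, 3123 and 3175 ppm. Vimentin (VIM) had 1169, 1154 and 1165 ppm and FOSL1, a subunit of AP-1, 821, 817 and 837. The transcriptional coactivators WWTR1, also known as TAZ, and YAP1 had 378, 378 and 384 and 128, 127 and 130.2. The mesodermal homeobox factor MEOX2 had 264, 267 and 271 ppm and fibronectin (FN1) 104, 103 and 104. PRRX1, a homeobox factor that marks the state, was lower with 43.0, 45.8 and 45.9. NOTCH2 (92.0), RUNX1 (36.1), ZEB1 (31.8), TWIST1 (25.8), FOSL2 (17.0) and SNAI2 (12.7) also passed 10 ppm, while TWIST2 (8.61), ZEB2 (6.04) and RUNX2 (3.18) did not. SOX9 had no value. Many of these genes are expressed in mesenchymal cells and cultured tumour lines of several origins, so the list by itself names no tissue.

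**Figure D1:**
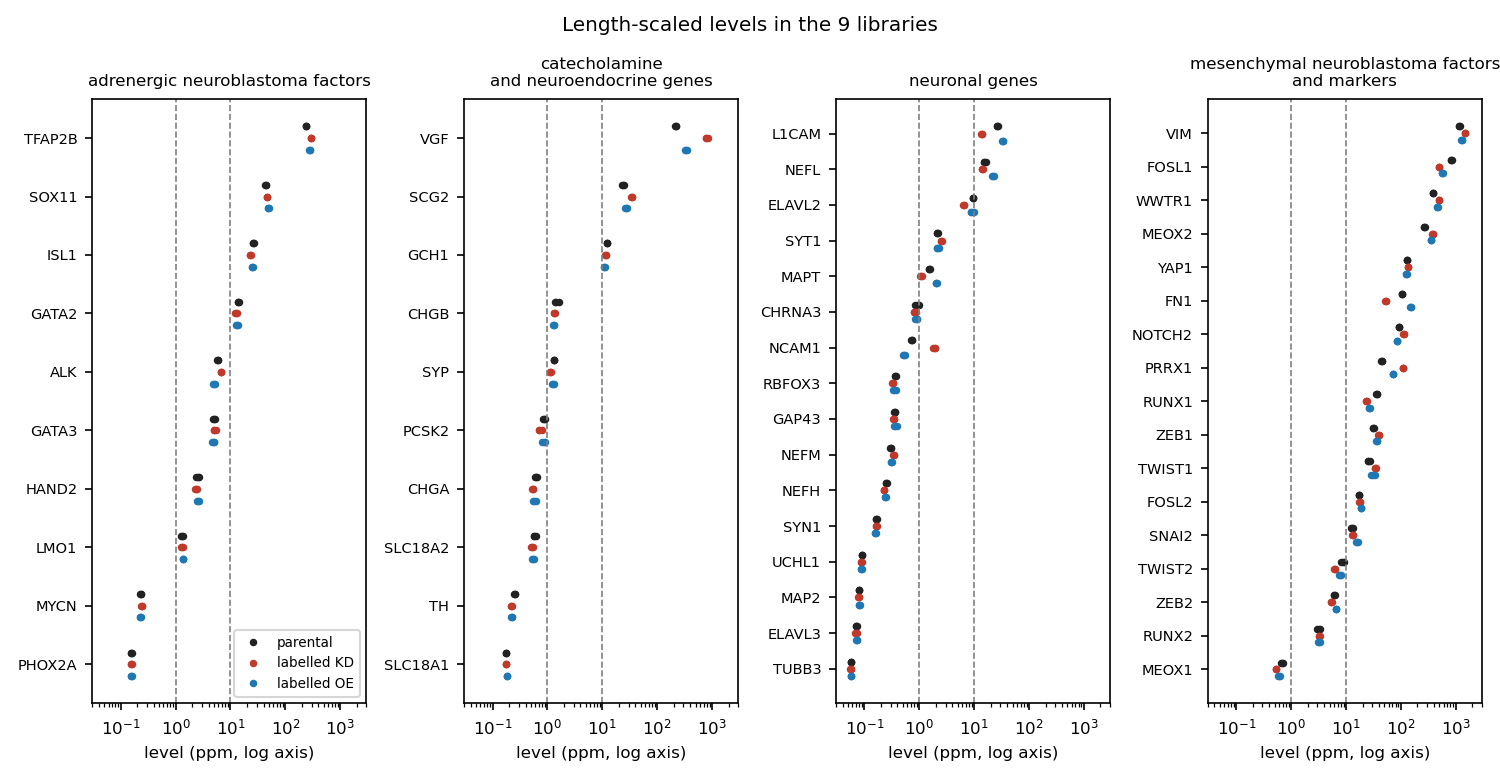
Level of listed genes with a value (ppm, log axis, dashed lines at 1 and 10) in each of the 3 parental libraries (black), 3 libraries labelled KD (red) and 3 labelled OE (blue), for 4 lists. MYCN and PHOX2A lie left of 1 ppm in all 9 libraries, whereas VIM, FOSL1, WWTR1, MEOX2 and YAP1 lie above 100 in all 9.

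The plot of the 4 lists by library shows the points of a group nearly on top of each other, with steps between genes of the same list far wider than those between groups for most genes. TRAP1, the gene named in the labels, had 35.03, 34.6 and 34.8 ppm in the parental libraries, 37.5, 37.5 and 38.4 in those labelled KD and 34.5, 33.8 and 36.2 in those labelled OE. The libraries labelled KD were therefore not lower in TRAP1 than the parental libraries, and those labelled OE overlapped them. For this reason KD and OE stand for labels only. Of the exonic bases of TRAP1 28.5% are shared with other genes.

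By length-scaled level, the most abundant RNAs came from the mitochondrial genome. MT-CO1, a subunit of cytochrome c oxidase, led all genes with 24537, 24409 and 24348 ppm, followed by MT-CO3 with 22992, 23317 and 22644 and MT-ATP6, a subunit of ATP synthase, with 22185, 22084 and 21817. MT-ND4 (19987), MT-CO2 (17816), MT-ND4L (13192), MT-ND3 (8234), MT-ND2 (8209.7), MT-CYB (7249.6) and MT-ND5 (6542) completed the 10 most abundant genes. These 10 held 15.1 ± 0.16% (SD, n = 3) of the summed level, the 100 most abundant held 33.7 ± 0.23% and the 1000 most abundant 61.5 ± 0.21%. All 34 genes of the mitochondrial genome with a value held 17.3%, 17.5% and 17.2% in parental 1, 2 and 3. The shares of the mitochondrial genome depend strongly on the length scaling and were smaller under both other ways of scaling tried. The order depends on it too. By mean rlog, with no length scaling, MT-CO1 (18.37) stayed above EEF1A1 (18.18). However, EEF1A1, SERPINE2 (17.69) and HSP90AA1 (17.67) passed MT-CO3 (17.30) and MT-ATP6 (17.04).

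Among nuclear protein-coding genes the first place belonged to GAPDH (ENSG00000111640, chromosome 12, 6534512 to 6538374 on the plus strand), the glycolytic enzyme often used as a reference, with 6249, 6127 and 6097 ppm and rank 11 over all genes. The small-subunit ribosomal protein RPS12 followed with 5215, 5216 and 5065 and the large-subunit protein RPL8 with 4639, 4637 and 4624. The lowest GAPDH value lay above the highest RPS12 value, so this order held in every library. It depends on the length used: with the longest annotated transcript RPL8 (6801) passed GAPDH (6240), and with no length scaling EEF1A1 (8489), SERPINE2 (6008), HSP90AA1 (5926) and EEF2 (4120) passed GAPDH (3775). The cytosolic chaperones HSP90AA1 and HSP90AB1 had 4519, 4571 and 4538 and 3564, 3585 and 3519.6 ppm. The elongation factors EEF2 and EEF1A1 had 4008, 3963 and 4040.4 and 3344, 3291 and 3255. Means of EEF2 (4004) and of the calcium-binding protein S100A6 (4003) were not apart beyond their spread. Ribosomal proteins took most of the other places, with RPS2 (3909.7, 25.9% of exonic bases shared), RPS6 (3151), RPS27 (3072), RPS18 (2757), RPL13A (2734), RPL41 (2695), RPS21 (2643) and RPLP0 (2546). The glycolytic enzyme ENO1 had 2736, 2731 and 2711 ppm and the iron storage subunit FTL 2619, 2554 and 2573.

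SERPINE2, a secreted inhibitor of thrombin and other serine proteases, was the only one of the 20 leading nuclear protein-coding genes besides S100A6 without a role in translation, protein folding, glycolysis or iron storage. Its level was 2610.1, 2639.7 and 2613 ppm. The 74 cytosolic ribosomal protein genes with a value, paralogues such as RPL10L and RPL3L included, held 9.25%, 9.28% and 9.18% of the summed level, and 67 of them were high. Others, RPS4X and RPL15 among them, had no value, so the share is not that of the full set. The ribosomal gene RPL5 (1.81) lay far below most others although its protein is part of the same particle, and other annotated genes overlap 9.98% of its exons. Many of these genes have processed pseudogenes (65 annotated for GAPDH, 49 for EEF1A1, 35 for RPL5, 25 for RPS2 and RPL13A), and reads that match a pseudogene as well may be lost or split. Low counts of that kind were not tested for. Of the genes of other biotypes the mitochondrial ribosomal RNA MT-RNR2 led with 3609.7, 4031 and 3951 ppm, the widest spread among the leading genes shown. It was followed by the pseudogene ENSG00000256673 (2226), the transfer RNA MT-TP (1582), the long noncoding RNA ENSG00000279501 (1437) and MT-RNR1 (1399). The paper describes mRNA libraries, so these levels of ribosomal, transfer and noncoding RNAs may not follow their content in the cells. MT-TP has 68 bases, fewer than a read, so its length-scaled level is uncertain.

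**Figure D2:**
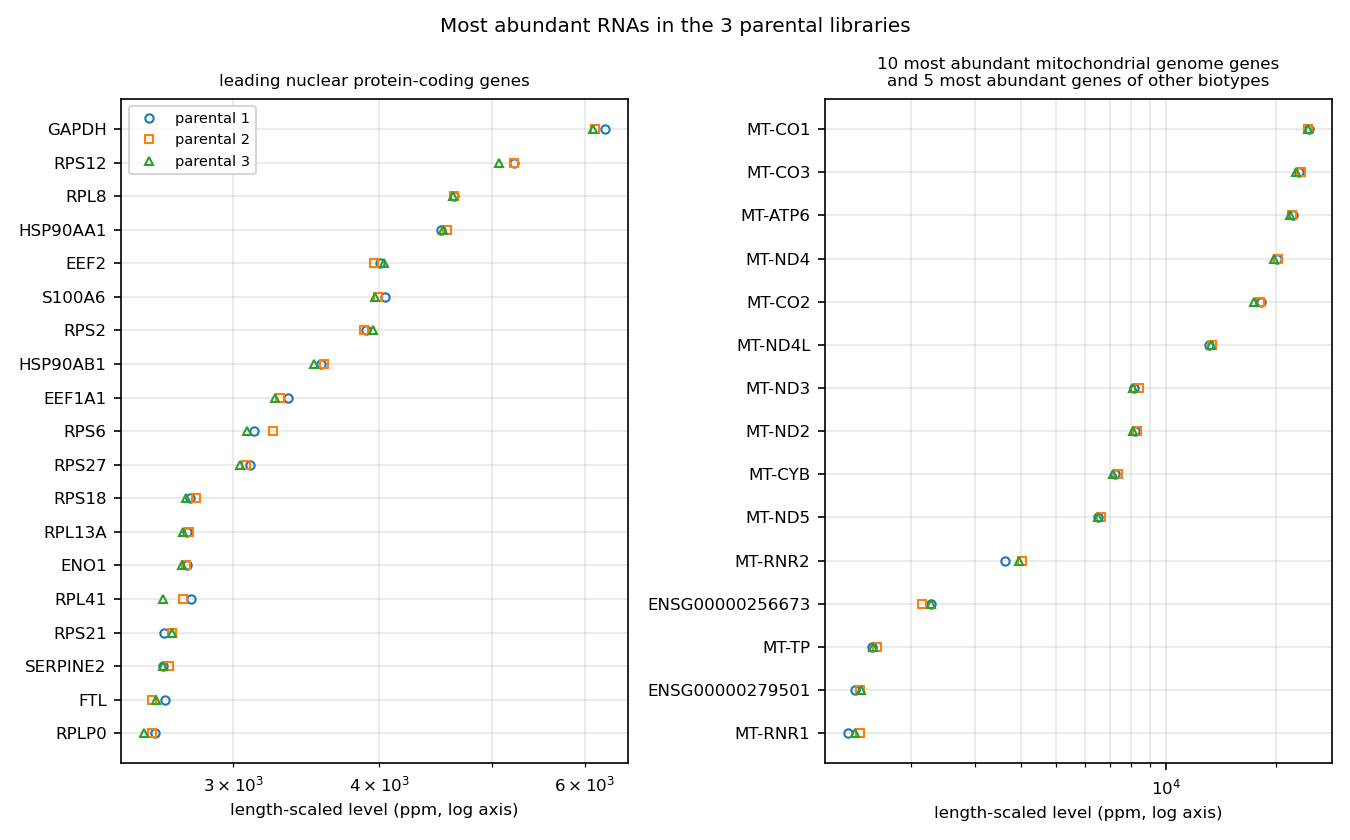
Level ppm (log axis) in parental 1 (circles), 2 (squares) and 3 (triangles) of 19 of the 20 most abundant nuclear protein-coding genes (left) and of the 10 most abundant mitochondrial genome genes with the 5 most abundant genes of other biotypes (right). GAPDH leads on the left at about 6157 ppm and MT-CO1 on the right at about 24431, and neighbours in the order often overlap.

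The plot of the leading genes shows that from RPS18 downward most neighbours overlap in the values of their libraries, so much of that order is not resolved. The starts of the leading genes were also read, which the ranking did not use. RNAs of the translation machinery typically begin within an unbroken run of C and T, a terminal oligopyrimidine tract, which couples their translation to growth signals. Of the 20 leading nuclear protein-coding genes 17 had an entry in the RefSeq promoter table (GRCh38.p14), and 13 of these (76.5%) had a run of at least 6 C or T that overlapped the stretch from 5 bases before to 10 after the annotated start. They are all 10 genes of the translation machinery with an entry and 3 of the 7 others (S100A6, HSP90AB1 and FTL). The share was 26.3% (9222 of 35116) over all entries of the table and 61.9% (13 of 21) over the entries of these 17 genes, of which some have more than 1. The letters TATAAA, on either strand within 250 bases before to 50 after the start, were found for 2 of the 17 genes (EEF2 and RPLP0, 11.8%), in 9.52% of their entries and in 11.5% of all entries. RPL8 and RPS2 were among those with no entry. The sequences of the leading gene and of 5 members of the translation machinery show the run itself. They span 60 bases before to 20 after the start, read 5′ to 3′ on the gene's strand. Capitals mark the longest run of C and T that overlaps the stretch from 5 bases before to 10 after the start. GAPDH (chr12:6535204-6535283, plus strand) has a run of 5, under the limit. RPS12 (chr6:132814509-132814588, plus) and RPS6 (chr9:19380217-19380296, minus) have 11, EEF2 (chr19:3985444-3985523, minus) and EEF1A1 (chr6:73521013-73521092, minus) have 9, and RPL13A (chr19:49487548-49487627, plus) has 14.
GAPDH: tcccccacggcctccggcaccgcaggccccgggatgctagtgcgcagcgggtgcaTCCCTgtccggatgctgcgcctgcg
RPS12: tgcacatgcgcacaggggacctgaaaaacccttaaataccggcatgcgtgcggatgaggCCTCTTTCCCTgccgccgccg
EEF2: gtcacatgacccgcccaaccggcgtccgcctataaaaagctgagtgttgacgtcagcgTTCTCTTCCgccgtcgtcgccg
EEF1A1: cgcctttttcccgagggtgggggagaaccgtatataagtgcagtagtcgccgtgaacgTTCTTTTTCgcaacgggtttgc
RPS6: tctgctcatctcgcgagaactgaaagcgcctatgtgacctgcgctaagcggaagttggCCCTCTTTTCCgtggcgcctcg
RPL13A: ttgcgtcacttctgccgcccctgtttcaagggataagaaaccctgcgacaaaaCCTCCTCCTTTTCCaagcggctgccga

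Transcription factors were read from chosen families, which leave out AP-1 and MEOX factors such as FOSL1 and MEOX2, and the 10 most abundant members of these families were TFAP2C, TFAP2B, NR2F6, ESRRA, SOX5, SNAI1, TEAD4, HOXB7, NR4A1 and NR1D2. TFAP2C (ENSG00000087510, chromosome 20, 56629306 to 56639283 on the plus strand), an AP-2 factor known from trophoblast, germ cells and mammary epithelium, had 328, 336 and 331 ppm, above TFAP2B in every library. TFAP2A (5.05) and TFAP2E (1.73) were far lower. The orphan nuclear receptor NR2F6 had 115, 115 and 120.05 ppm and ESRRA, a regulator of mitochondrial genes, 108, 108 and 113. SOX5 led 9 SOX factors with 99.0, 99.9 and 101, followed by SOX11, SOX4 (15.0) and SOX13 (13.5), with SOX30 and SOX7 near the floor. SNAI1, a repressor of E-cadherin, had 94.4, 89.5 and 89.8 ppm and stood above ZEB1, TWIST1 and SNAI2. The YAP1 and WWTR1 partners TEAD4 (90.1, 89.7 and 90.1) and TEAD1 (69.3, 68.0 and 70.8) led the TEAD factors, with TEAD3 at 13.3. TEAD4, TEAD1 and SNAI1 were thus found above 10 ppm together with the coactivators YAP1 and WWTR1.

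Other lineage factors were lower. KLF5 (67.3) and KLF4 (33.3) passed 10 ppm, while EHF and ELF3, of epithelial cells, lay near the floor. TP63, the factor of basal epithelium, lay near the floor with 0.0451. GATA4, a factor of heart and endoderm, had 15.0, 14.9 and 15.4 ppm just above GATA2 in every library, while GATA1 lay near the floor. PAX3, a factor of dorsal neural tube and neural crest, had 8.88, 8.76 and 9.38 ppm, slightly above PAX9 with 8.84, 8.23 and 8.96. These were the leading members of 5 PAX factors with a value, 3 of them (PAX2, PAX5, PAX6) near the floor. Both FOXA factors with a value, FOXA1 (0.326) and FOXA3, lay near the floor, GRHL1 led the grainyhead-like factors with 2.83 while GRHL2 and GRHL3 lay near the floor, and HNF4G led the HNF factors with 2.24 while HNF4A lay near the floor. In the MYC family MYC had 8.31, 8.41 and 8.12 ppm, MYCL 1.01 and MYCN 0.231, so MYC led in every library at a level under 10.

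Of 21 HOX genes with a value 7 lay at or above 10 ppm and 5 near the floor, and HOX genes with no value, such as HOXA10, are left out. HOXB7 led with 76.9, 80.5 and 77.7 ppm, ahead of HOXB2 (49.7), HOXC4 (31.1), HOXC13 (29.0, 25.5 and 27.1), HOXB13 (20.5, 19.3 and 20.7), HOXC12 (14.5) and HOXD13 (11.4). Genes from the front (HOXB2) and from the posterior end of the clusters (HOXB13, HOXC13, HOXD13) were thus found side by side, and HOXA7, HOXA9, HOXD1, HOXD11 and HOXD12 lay near the floor. Among nuclear receptors 43 of 48 had a value, 20 lay at or above 10 ppm and 10 near the floor. After NR2F6 and ESRRA came NR4A1 (71.9), NR1D2 (70.3), NR1H2 (69.0), NR2F2 (59.0), RXRG (58.5), RXRB (49.2), RARG (48.3) and RARA (45.9). NR1D1, PPARG, NR3C1, VDR, NR2C1, NR4A2, THRA, PPARD, NR1H3 and RXRA lay between 10.9 and 37.2 ppm. ESR1 and ESR2, the oestrogen receptors, were among those near the floor, as were ESRRG and HNF4A.

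The growth factor receptor AXL led the receptor tyrosine kinases. Of 54 receptor tyrosine kinases 46 had a value, 20 lay at or above 10 ppm and 18 near the floor. AXL, the receptor of GAS6, had 266, 267 and 269 ppm, EPHA2 203, 197 and 199 and ERBB3, a neuregulin receptor, 156, 153 and 153. MET, the receptor of hepatocyte growth factor, had 76.1, 76.0 and 77.2 ppm. RYK, DDR2, DDR1, EPHB4, ERBB2, EPHB3, IGF1R, TYRO3, FLT1, EPHA3, PTK7, EPHB2, INSR, FGFR1, FGFR3 and FGFR4 lay between 10.3 and 60.9. EGFR was just under this group with 9.05, 9.11 and 9.18 ppm. Neurotrophin receptors lay near the floor, with means of 0.0969 for NTRK2, 0.373 for NTRK3 and 0.547 for NGFR. KIT and RET had no value. NTRK2, NTRK3 and NGFR were thus near the floor where AXL, EPHA2 and ERBB3 were high.

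The list of cytokine, TGF-beta, TNF and NOTCH receptors had values for 35 of 36 genes, with 21 at or above 10 ppm and 6 near the floor. TNFRSF12A, the receptor of TWEAK, led with 411, 424 and 432 ppm. TNFRSF1A (183), TNFRSF21 (149), TNFRSF10B (116) and the interferon gamma receptor chain IFNGR2 (104) were also high. NOTCH2, TNFRSF10A, TGFBR2, NOTCH1, IL6R, OSMR, IL6ST, IL13RA1, IFNGR1, BMPR1A, ACVR1B, TGFBR1, IFNAR1, BMPR2, IL17RA and ACVR1 lay between 10.7 and 92.0 ppm. CD40, IL10RB, IL1R1 and NGFR were among the 6 near the floor.

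Of the classical and type II cadherins 17 of 22 had a value, and 5 of these lay at or above 10 ppm. N-cadherin (CDH2) led with 67.9, 67.2 and 69.0 ppm, ahead of the membrane-anchored CDH13 with 54.3, 52.2 and 53.8 and CDH19, known from Schwann cell precursors, with 32.8, 33.8 and 35.3. CDH24 (14.2) and CDH12 (13.3) followed, 10 members including CDH11, CDH15 and CDH17 lay near the floor, and E-cadherin (CDH1) had no value. Of 26 integrin subunits 24 had a value, 10 lay at or above 10 ppm and 9 near the floor. ITGA3, a laminin receptor chain, led with 237, 234 and 239 ppm, followed by ITGB5 (176) and the common beta chain ITGB1 with 121, 122 and 123. ITGB8 (57.5), ITGA6 (56.5), ITGA2 (50.5), ITGA4 (31.8), ITGAE (17.0), ITGA1 (16.9) and ITGA10 (13.8) completed the group, and ITGA11, ITGA2B, ITGA8 and ITGAM were among those near the floor. Of the alpha chains that pair with ITGB1 to bind laminin or collagen, ITGA3, ITGA6, ITGA2, ITGA1 and ITGA10 thus passed 10 ppm, whereas ITGA7 (3.97) and ITGA11 (0.639) did not.

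Epithelial junction genes were mostly low. Of 20 claudin and tight junction genes with a value 3 passed 10 ppm, CLDN15 (32.8), the scaffold TJP1 (30.1) and CLDN4 (26.0), and 11 lay near the floor, among them CLDN1, CLDN14, CLDN16 and CLDN19. Of 10 desmosomal genes PKP3 (27.2), PKP4 (16.4) and DSG2 (16.0) passed 10 ppm, and 5 lay near the floor, among them DSC2, DSC3, DSG1 and PKP1. Of the other adhesion molecules 15 of 23 with a value lay at or above 10 ppm. BSG, a partner of monocarboxylate transporters, had 463, 455 and 459.8 ppm, CADM4 398, 394 and 403 and the hyaluronan receptor CD44 294, 294 and 297. CD9 (97.9), NECTIN3 (93.2), CD151 (76.9), ICAM1 (41.3), CD47 (38.4), MCAM (30.4), CADM1 (30.3), NECTIN1 (23.0), NRCAM (22.9), NECTIN2 (21.9) and ALCAM (18.7) followed, along with L1CAM. CADM2, EPCAM, NCAM1, NECTIN4 and VCAM1 lay near the floor. Among intermediate filament genes VIM was followed by nestin (NES), a filament of progenitor cells, with 722, 729 and 736 ppm. KRT18 had 157, 154 and 155, KRT10 77.4, SYNM 44.4, NEFL 15.5 and KRT6B 11.8, and 12 of 25 members lay near the floor, among them DES, GFAP, KRT12 and KRT13.

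**Figure D3:**
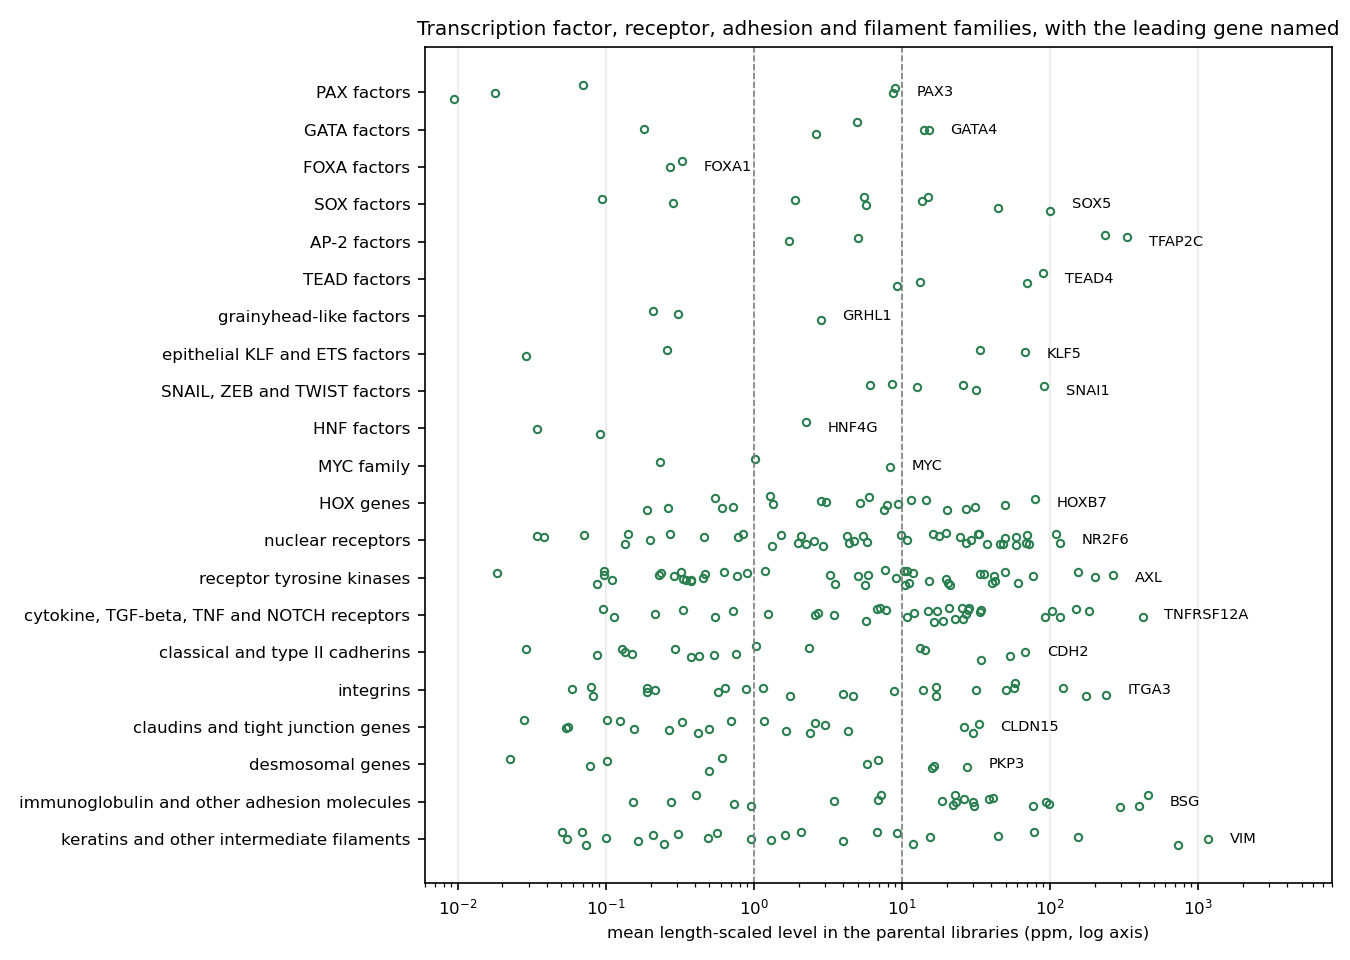
Mean level in the 3 parental libraries (ppm, log axis, dashed lines at 1 and 10) of every member with a value in 21 families of transcription factors, receptors, adhesion and filament genes, 1 circle a gene, with the leading gene of each family named. VIM, BSG, TNFRSF12A and TFAP2C have the largest means among the leading genes of these families, the smallest of the 4 being TFAP2C with 332 ppm, and FOXA1 leads its family below 1.

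The plot of the families shows that most large families hold members over the whole range from near the floor to 100 ppm, whereas no member of the PAX, FOXA, grainyhead-like, HNF and MYC families reached 10. The same levels were read against lists of tissue genes. The Schwann and neural crest list had values for 6 of 8 genes and none near the floor, with a median of 96.6 ppm, the largest of the 26 lists. ERBB3 led it, S100B had 135, 135 and 133, the myelin protein PMP22 102, 102 and 101, TFAP2A had 5.05 and FOXD3 4.21. SOX10, the factor that defines these cells, had no value, and the list is short. Among melanocyte genes 6 of 7 had a value and 1 lay at or above 10 ppm. MITF, the master factor of that lineage, had 14.4, 14.6 and 14.5 ppm, while PMEL (1.78), SLC45A2 (1.52), TYR (1.16), DCT (0.373) and TYRP1 (0.297) were low. Glial genes had values for 8 of 10, with the matrix proteoglycan BCAN at 76.0, 75.6 and 78.7 ppm, OLIG1 at 1.49, SLC1A3 at 1.35, and 5 members, GFAP (0.559) and ALDH1L1 (0.0232) among them, near the floor.

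Epithelial lists were low in most members. Of 19 simple epithelial genes with a value 14 lay near the floor, among them EPCAM with 0.278, 0.271 and 0.281 ppm, and the median was 0.277. KRT18 and CLDN4 were the members at or above 10 ppm, while KRT8, the partner of KRT18 in filaments, had 6.62, 6.96 and 6.63 and KRT7 1.29. CDH1 and KRT19 had no value. Of 18 basal and squamous epithelial genes 4 passed 10 ppm, S100A2 (75.0), PERP (70.0), LYPD3 (60.7) and KRT6B. KRT14 (9.21), KRT15 (3.98) and SFN (1.38) lay from 1 to 10 ppm. The other 11 lay near the floor, with KRT5 at 0.0739, KRT6A at 0.486 and KRT13 at 0.0505, and the list's median was 0.541. The summed level of the simple epithelial list was 197, 195 and 197 ppm and that of the basal list 234, 236 and 235.

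No list of a single organ had most of its genes with a value at or above 10 ppm. Of 8 hepatocyte genes with a value 1 passed 10 ppm, SERPINA1 with 15.0, and 6 lay near the floor, with CPS1 at 9.04 and TF at 0.655, and ALB, APOA1, APOA2, APOB and APOH had no value. The 3 lung epithelial genes with a value, ABCA3 (0.405), SFTPD (0.392) and SFTPB (0.124), lay near the floor. Of 6 intestinal genes 5 lay near the floor, with LGALS4 at 0.589 and LGR5 at 0.204. Liver, lung and gut genes were thus near the floor with few exceptions. Of 7 luminal breast genes 3 passed 10 ppm, ERBB2 (40.4), TRPS1 (26.3) and AZGP1 (10.99), and 4 lay near the floor, with TFF3 at 0.998, FOXA1 at 0.326 and ESR1 at 0.141. Of 7 prostate genes HOXB13 passed 10 ppm, FOLH1 had 7.43, and KLK2 (0.352) and TMPRSS2 (0.0288) lay near the floor. The breast and prostate lists thus held some genes above 10 ppm, with ESR1 near the floor.

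Of 6 kidney genes LHX1 (28.0) passed 10 ppm, WT1 had 7.18 and CUBN 2.17, and 3, PAX2 among them, lay near the floor. Of 5 ovarian and uterine genes none passed 10 ppm and 2 lay near the floor, with OVGP1 at 3.47, HOXA11 at 1.35, WFDC2 at 1.19 and MSLN at 0.489. Of 4 pancreas genes none passed 10 ppm and 2 lay near the floor, with NKX6-1 at 5.84, CEL at 1.47, NR5A2 at 0.456 and PDX1 at 0.0664. These organ lists rest on few genes with a value. Of 4 urothelial genes PPARG passed 10 ppm with 33.0, UPK2 had 3.82, and 2, UPK1A (0.912) and SNX31, lay near the floor. Of 2 thyroid genes SLC26A4 had 2.44 and TG 0.0170. Of 4 adrenal cortex genes CYP11A1 had 1.61, and NR0B1 (0.775), STAR (0.0975) and NR5A1 (0.0710) lay near the floor. The cortex of the adrenal, the neighbour of the tissue in which neuroblastoma arises, was thus not represented by its defining factor NR5A1.

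Lists of fibroblast, endothelial, blood and muscle genes were low as well. Of 9 fibroblast genes none passed 10 ppm and 7 lay near the floor, with PDGFRB at 5.58, LUM at 1.26, PDGFRA at 0.322 and the collagens COL1A1, COL1A2 and COL3A1 at 0.228, 0.0264 and 0.0368. The high vimentin and fibronectin levels thus stood beside collagen I and III near the floor. Of 9 endothelial genes none passed 10 ppm and 7 lay near the floor, with PECAM1 at 9.97, KDR at 5.07, TIE1 at 0.629, TEK at 0.373, VWF at 0.333 and CDH5 at 0.0288. Of 6 blood cell genes 5 lay near the floor, with CD14 at 1.09, SPI1 at 0.387, HBA1 at 0.325 and PTPRC at 0.0453, and the 3 muscle genes with a value, ACTA1 (0.267), MYL4 (0.128) and DES (0.0543), lay there too. Endothelial, blood and muscle genes were thus under 10 ppm in all members with a value. Of 3 pluripotency and germ cell genes ZFP42, a marker of embryonic stem cells, had 52.9, 53.5 and 53.6 ppm, LIN28B had 15.9 and SALL4 lay near the floor with 0.0681, while POU5F1, NANOG and LIN28A had no value. Of 3 trophoblast genes TFAP2C was high, and GCM1 (0.127) and PAPPA2 (0.0867) lay near the floor.

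**Figure D4:**
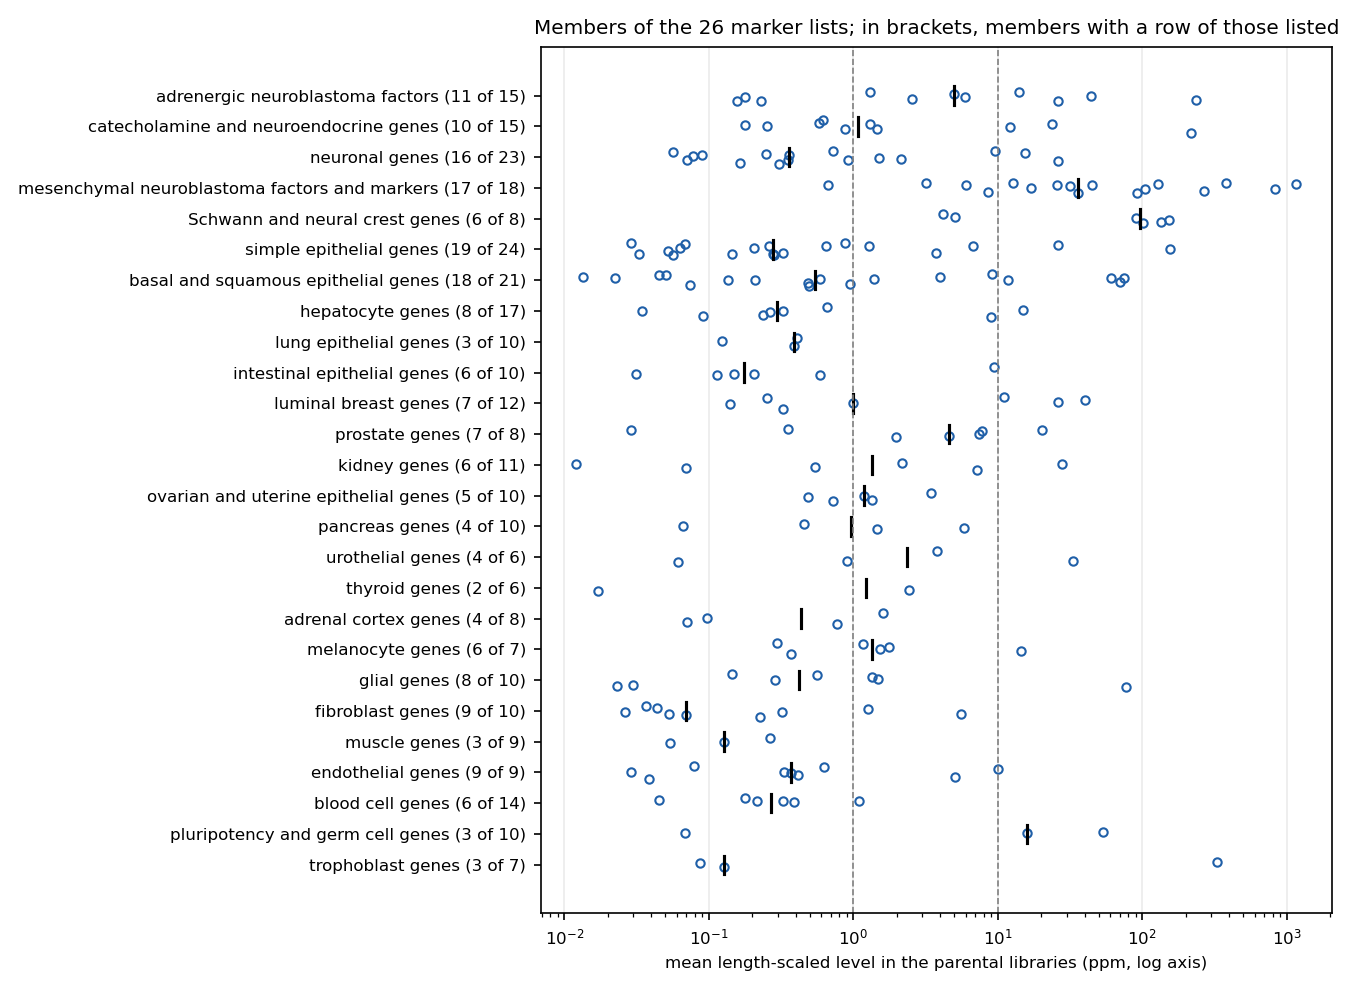
Mean level in the 3 parental libraries (ppm, log axis, dashed lines at 1 and 10) of each member of 26 marker lists, 1 circle a gene, with a black bar at the median and the number of members with a value of those listed in brackets. The medians of the Schwann and neural crest list (96.6) and of the mesenchymal neuroblastoma list (36.1) lie furthest to the right.

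The plot of the 26 lists sets these medians side by side: the Schwann and neural crest, the mesenchymal neuroblastoma and the pluripotency lists had medians above 14.0 ppm, the median of all nuclear protein-coding genes, and the other 23 lay below it. The last of these 3 lists rests on 3 genes. Of all nuclear protein-coding genes 55.5% lay at or above 10 ppm and 22.2% near the floor. The shares at or above 10 ppm were 76.5% of the mesenchymal neuroblastoma list, 66.7% of the Schwann and neural crest list, 36.4% of the adrenergic, 30% of the catecholamine, 12.5% of the neuronal and 0% of the fibroblast list, and those near the floor were 5.88%, 0%, 27.3%, 50%, 68.8% and 77.8%. The adrenergic list was thus only somewhat below the background, with TFAP2B, SOX11, ISL1 and GATA2 above 10 ppm, while the catecholamine and neuronal lists lay further below it. The mesenchymal neuroblastoma list lay above it and the fibroblast list far below.

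Metabolic isoforms were compared within families, each member per length, as the leading member's share of the family's summed level and as the log2 difference to the next member. In glycolysis the hexokinases HK1 and HK2 were nearly equal, with 136, 136 and 136 and 129, 127 and 129 ppm. HK1 held 50.5 ± 0.13% (SD, n = 3) of the family, and the log2 difference was 0.08 ± 0.0071 (SD, n = 3), HK1 being higher in all 3 libraries. HK3 lay near the floor. Of the phosphofructokinases the platelet type PFKP had 173, 169 and 174 ppm and 59.6 ± 0.24% (SD, n = 3) of the family, ahead of the muscle type PFKM with 77.5, 77.0 and 78.0 and the liver type PFKL with 39.9, 38.9 and 39.2. PFKFB4 (206) and PFKFB3 (131), which set the level of the activator of phosphofructokinase, were both high, and PFKFB4 held 59.3 ± 0.45% (SD, n = 3). Platelet-type phosphofructokinase and the inducible PFKFB enzymes thus led their families.

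Further down the pathway PGK1 (697), PGAM1 (663) and PKM (1394, 1375 and 1384) were the members with a value in their families. ENO1 held 97.4 ± 0.054% (SD, n = 3) of the enolases, and ENO2, the neuronal type, had 56.9, 55.8 and 57.1 ppm and ENO3 17.1. LDHA had 865, 865 and 858 ppm against 8.99 for the testis type LDHC, and LDHB had no value. GAPDH stood against 0.605 for the sperm type GAPDHS. Each step of lower glycolysis with a value thus rested on a ubiquitous isoform. ALDOA, the aldolase of most tissues, had only 2.47, 2.45 and 2.30 ppm. However, 54.2% of its exonic bases lie in other annotated genes, among them ENSG00000285043 (2.55), so its level may miss most reads and is not read as low aldolase RNA. How far reads were lost was not tested.

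Glucose uptake was led by SLC2A1 with 130.3, 129 and 131 ppm and 79.4 ± 0.21% (SD, n = 3) of 7 transporters with a value, ahead of SLC2A3 (19.2), and SLC2A10, SLC2A12 and SLC2A4 lay near the floor. Of the monocarboxylate transporters SLC16A1 (MCT1) had 135, 136 and 138 ppm and 83.8 ± 0.55% (SD, n = 3). SLC16A7 (14.7) and SLC16A8 (10.5) followed, and SLC16A3 (MCT4), the exporter usually tied to glycolytic cells, had 1.23, 1.15 and 1.17. Lactate transport RNA was thus mainly SLC16A1, whose partner BSG was high. The pyruvate dehydrogenase kinases PDK2 (9.71, 9.93 and 9.81), PDK1 (9.60, 9.80 and 9.99) and PDK3 (7.35) were all under 10 ppm. The log2 difference of PDK2 and PDK1 was 0.00 ± 0.025 (SD, n = 3) and changed sign between libraries, so neither led, and without parental 1 or without parental 2 the larger share passed to PDK1. With no length scaling PDK1 led too, and the share of PDK2 was 16.4% in place of 36.4%. Of PDK2 38.6% of the exonic bases are shared. PDHA1, their target, had 46.9 ppm.

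Of gluconeogenic genes FBP1 and FBP2 had no value, PCK1 lay near the floor with 0.0218 and G6PC3, the ubiquitous glucose-6-phosphatase, had 64.8. In mitochondria and nearby pathways, IDH1 (66.3, 66.5 and 67.4) was above IDH2 (55.9, 53.5 and 53.4) by a log2 difference of 0.30 ± 0.046 (SD, n = 3). The cytosolic malic enzyme ME1 had 58.5, 60.5 and 61.3 ppm and 71.6 ± 0.47% (SD, n = 3) of its family, ahead of ME2 (19.1), a lead that turned to ME2 without length scaling, with a share of 38.4% for ME1. By length-scaled level, the cytosolic forms IDH1 and ME1 thus led their families. GLUD1 (52.6) led GLUD2, and the mitochondrial aminotransferase GOT2 (196) led GOT1 (95.8). ACACA (39.9), CPT1A (43.7), with CPT1C near the floor, and ARG2 (25.9), with ARG1 near the floor, led their families. CKB had 7.27 ppm, with CKM near the floor.

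The one-carbon enzymes MAT2A and SHMT2 were high. MAT2A, the methionine adenosyltransferase of tissues other than liver, had 354, 344 and 346 ppm, while the liver type MAT1A had 0.466, a log2 difference of 9.55 ± 0.028 (SD, n = 3). The mitochondrial SHMT2 had 258, 255 and 255 ppm and 84.1 ± 0.13% (SD, n = 3) of its family, ahead of the cytosolic SHMT1 (48.4). TKT (314) led the transketolases, with TKTL1 near the floor, and ALDH1A3 (38.9, 33.3% of exonic bases shared) led the retinal dehydrogenases, with ALDH1A1 and ALDH1A2 near the floor. The liver forms MAT1A and ARG1 were thus both near the floor. Of the carbonic anhydrases only CA5B (10.4) passed 10 ppm, just above CA9 (9.13), and 6 of 10 lay near the floor, among them CA1, CA12, CA3 and CA5A.

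Of the ADP/ATP carriers SLC25A5 had 1269, 1260.3 and 1235 ppm and 70.9 ± 0.7% (SD, n = 3) of the family, followed by SLC25A6 (453) and SLC25A4 (58.9), the heart and muscle type. COX4I1 (234) and COX7A2 (210.2) were high, and the muscle type COX7A1 had 3.05. COX6A1 had only 0.449, 0.422 and 0.438 ppm although its protein is part of the same enzyme. Further annotated genes cover 13.1% of its exon length, and the overlapping gene ENSG00000111780 had 0.521 ppm. Whether the COX6A1 level misses reads through this overlap was not tested. SLC25A5 and COX7A2 thus led the muscle types of their families, while COX4I2 and COX6A2 had no value to compare with. Of the Hsp90 chaperones HSP90AA1 held 54.8 ± 0.19% (SD, n = 3), with a log2 difference of 0.35 ± 0.012 (SD, n = 3) to HSP90AB1, the form of the endoplasmic reticulum HSP90B1 had 149, 151 and 152 ppm and the mitochondrial form TRAP1 34.8. PRDX1 (945), PRDX5 (737), PRDX3 (325) and PRDX4 (258) were all high among the peroxiredoxins. FTL held 84.1 ± 0.42% (SD, n = 3) of the ferritins, but FTH1 (489) shares 63.2% of its exonic bases with other genes.

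**Figure D5:**
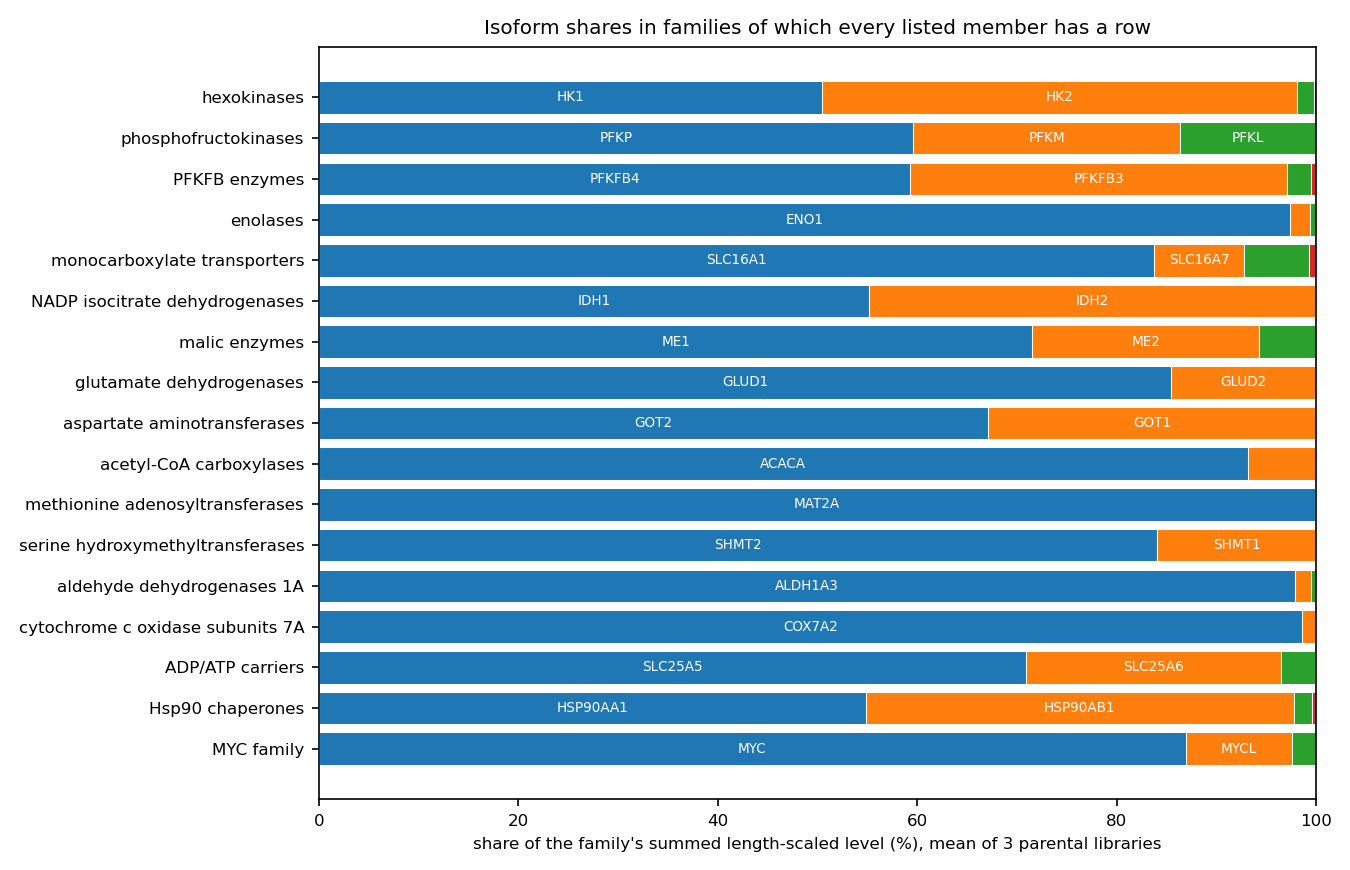
Share (%) of each member in its family's summed level, mean of the 3 parental libraries, with colours by order within the family (blue for the leading member). Shown are 17 of the families in which every listed member had a value. HK1 and HK2 split the hexokinases nearly evenly, whereas ENO1, MAT2A, COX7A2 and ALDH1A3 hold at least 97.4% of theirs.

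The plot of isoform shares shows families led by a single member beside families split between members, such as the hexokinases, isocitrate dehydrogenases and Hsp90 chaperones. Cell cycle genes with a value were expressed throughout: 28 of 32 had a value, all 28 lay at or above 10 ppm and 21 were high, with a median of 154. PCNA, the clamp of DNA polymerases, led with 600.3, 596 and 602 ppm, CCNB1 had 525, 525 and 527, TOP2A 480.1, 485 and 492 and the proliferation antigen MKI67 235, 237 and 240.03. The replicative helicase subunit MCM7 (426) and CCND1 (359.6, 365 and 369), the D-type cyclin with the largest level, were also high, and the kinase partner CDK4 (261) stood above CDK6 (106). The other members lay between 14.4 ppm for CCNE2 and 239.96 for AURKA. CDKN2A, CDKN2B, CDK2 and CCND2 had no value.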

How the data were processed

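RNA of the 9 libraries had been prepared by the authors with a TruSeq v2 kit, which does not mark strand. Per the submitters' processing notes, the authors used cutadapt, HISAT2 on GRCh38, featureCounts of Subread and DESeq2, with no versions given, and dropped genes whose reads summed to under 10. The values the authors deposited are regularized log2 values as DESeq2 makes them. The table's 3 empty columns hold no values. The annotation release used for counting is not given, and gene lengths here are those of GENCODE release 44. Of 22290 genes 22195 matched a gene model of that release by identifier, and 95 were left out. The level is 2 to the power of the rlog value divided by merged exon length and scaled to 1000000 per library. It was computed with Python 3.11.15, numpy 2.4.6, pandas 2.3.3 and matplotlib 3.10.9. The calculation was also run on counts simulated from the levels and gene lengths of these data. The simulated counts had no rlog shrinkage and no loss of reads to overlapping genes, so that run checks the arithmetic only. No test was run, since the 3 parental libraries were not contrasted. Promoter sequences are from RefSeq (GRCh38.p14).

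Members and lists were chosen with earlier results of these data known. Named genes are the 20 most abundant nuclear protein-coding genes, the 5 most abundant of other biotypes, the 10 most abundant transcription factors of the families, the 3 most abundant and the first 5 listed members of each list, the members of the adrenergic, catecholamine and neuronal lists, and the leading members of families with those at or above 10 ppm. Other genes were chosen after their values were seen. Some genes that these rules select are not named and stay in the counts, sums, medians and shares. Alternatives were the longest transcript as length, no length scaling, protein-coding nuclear genes as the denominator, the arithmetic mean, other thresholds, a mean rlog under 5 as the floor, leaving out genes of over 25% shared exonic bases, and leaving out each library.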

Additional observations from a re-analysis of the deposited data

How the results depend on the processing

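The numbers of genes at or above 1, 10 and 100 ppm stayed within 1.5 times of those given under the longest annotated transcript as the length, no length scaling, nuclear protein-coding genes as the denominator and each library left out. Shares of the summed level moved with the length. With the longest annotated transcript the 10 most abundant genes held 11.3%, the 100 most abundant 31.7%, ribosomal protein genes 11.3% and the mitochondrial genome 12.6%. With no length scaling these shares were 5.71%, 18.9%, 6.56% and 4.11%. With a floor of 0.5 ppm 2 catecholamine genes and 0 mesenchymal genes lay under it, and with a threshold of 20 only 1 neuronal gene passed. Over all 26 lists the number at or above 10 ppm moved by more than 1.5 times, or to or from 0, in 7 with a threshold of 5 and in 4 with 20, and the number near the floor in 4 with 0.5 and in 2 with 2. Of 52 list counts 3 moved so with the longest transcript and 7 with no length scaling. Of 28 isoform shares 27 and 24 moved by more than their SD, and with no length scaling the leading member changed in 2 families. The cause of these moves was not tested beyond the change of length or threshold itself.

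Of 448 genes of the lists and rankings 34 changed class (under 1, 1 to 10, 10 to 100, at or above 100) with the longest transcript, 73 with no length scaling, 28 with the other denominator, which raised every level by 0.39 on the log2 scale, and 0 with the arithmetic mean. Leaving out a library changed the class of at most 1. Merged exon length understates genes with many long transcripts, and low values are shrunken, so differences among genes near the floor are not resolved. Reads were counted without strand, so overlapping and antisense genes cannot be told apart. No paired analysis was possible because the part is the parental group alone, with no second group to pair it with, and values of the libraries labelled KD and OE stand beside it untested.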

Other observations

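Some antigen presentation genes were among the abundant RNAs, and the genes of this and the next paragraph were chosen after their values were seen. CD74, the invariant chain of MHC class II, had 1901, 1889.9 and 1918 ppm in parental 1, 2 and 3, and HLA-DRA, the class II alpha chain, 1895, 1883 and 1846. HLA-DPA1 had 247, 244 and 241 ppm, HLA-DRB1 a mean of 83.4 and CIITA, the coactivator of class II genes, 40.6, 39.0 and 40.9. CD74 and HLA-DRA, typical of antigen-presenting cells, were thus far above the other class II genes named, and the blood cell gene PTPRC (0.0453) lay near the floor. The means of CD74 in the libraries labelled KD and OE were 2074 and 1786 ppm. B2M, the light chain of class I, had 676, 681 and 681.

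Some single genes known from testis or melanoma were also high. MAGEA4 had 1296, 1309 and 1284 ppm, MAGEA3 418, 402 and 406, MAGEA6 194, 193 and 191 and PRAME 238, 233 and 232. Reads shared between the near-identical MAGEA3 and MAGEA6 make their separate levels uncertain. RMEL3, a long noncoding RNA known from melanoma, had 603, 597 and 603 ppm, beside 14.5 for MITF and 1.78 for PMEL, and the melanocyte list as a whole had 1 of 6 genes at or above 10 ppm. IL13RA2, the decoy receptor of interleukin 13, had 1702, 1693 and 1697, the chromatin protein HMGA1 2354, 2383 and 2411, the matrix protein SPARC 1525, 1512 and 1499.5 and the lectin LGALS1 1645, 1635 and 1613. All of these levels were close among the 3 libraries, and what cell of origin they mark was not tested.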
